A study of Mus musculus with 25 samples.

Results

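The genes described here encode the nuclear-encoded subunits of the mitochondrial oxidative phosphorylation machinery, measured in developing mouse iNKT cells. They were chosen by name, as every transcript cluster (the array's probe set for 1 gene) with a single symbol that begins with Ndufa, Ndufb, Ndufc, Ndufs, Ndufv, Uqcr, Cox4 to Cox8 or Atp5, or that is Sdha, Sdhb, Sdhc or Sdhd. This gave 93 genes of 19572 clusters with 1 symbol. They comprise 36 subunits of complex I, 4 of complex II, 8 of complex III, 19 of complex IV (11 main and 8 alternative isoforms), 17 of complex V, 8 assembly factors of complex I and the supercomplex factor Cox7a2l. The rule reads names and no measured value. Ndufa4 and Ndufa4l2 were counted with complex IV, where the Ndufa4 protein is found, and the complex III gene Cyc1 is not covered by the name rule.

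Oxidative phosphorylation makes most of a resting cell's ATP. Complexes I and II pass electrons from NADH and succinate to ubiquinone, complex III passes them on to cytochrome c, and complex IV passes them to oxygen. Complexes I, III and IV pump protons, and complex V, the ATP synthase, lets the protons back to make ATP. Complex I has core subunits that carry out the chemistry and many supernumerary subunits that surround and stabilise them. T cells raise mitochondrial and glycolytic activity when they divide, and quiescent T cells rely largely on mitochondrial respiration.

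iNKT cells are T lymphocytes with an invariant receptor for lipids presented by CD1d. They were sorted from the thymus of C57BL/6 mice as TCR beta-positive, CD1d-PBS57 tetramer-positive, CD24-negative cells. S3 denotes CD44-positive NK1.1-positive cells of stage 3, and S1_S2 denotes NK1.1-negative cells of stages 1 and 2 sorted as 1 population. The genotypes were dKOMst (lacking both Mst1 and Mst2, kinases of the Hippo pathway), Mst1KO (lacking Mst1) and WT. The arrays were 1 of dKOMst S3, 5 of Mst1KO S3, 7 of WT S3, 2 of dKOMst S1_S2, 4 of Mst1KO S1_S2 and 6 of WT S1_S2. The labels give neither the age of the mice nor how the alleles were made. They also do not state whether the arrays of a group are separate animals, so the p-values cover only the spread between arrays, which may be technical.

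Levels are log2 values, so that 1 unit is a doubling, and a difference is called where its limma p, adjusted over all 22206 clusters, is under 0.05. Array medians over all clusters were 7.28 to 7.39, and arrays of a group correlated at r of 0.9810 to 0.9927 over clusters. The numbers in the array titles run through the groups once and then again. The first pass has 16 arrays and holds every Mst1KO array, the second has 9 and holds every dKOMst array, and WT arrays lie in both. The pass was a term of the model, though the labels do not say what the numbers mean. Of the 93 genes, 12 were higher on the second pass and 0 lower, where 4.07% and 2.06% of all clusters were, and 10.6% and 2.04% of the 4161 bright clusters (mean log2 level of at least 9.49, the lower quartile of the 93 genes). Y-linked signal was lacking on 2 of 4 Mst1KO S1_S2 arrays and 2 of 5 Mst1KO S3 arrays and on no others. Stk4, the Mst1 gene, read 9.43 to 10.13 in Mst1KO S3 against 9.69 to 10.74 in WT S3, and 9.22 to 9.40 in Mst1KO S1_S2 against 10.18 to 10.74 in WT S1_S2. It fell by 0.92 in Mst1KO S1_S2 (limma adjusted p = 0.0059), while the difference of -0.35 in Mst1KO S3 (adjusted p = 0.15) was not called. In dKOMst S1_S2 it differed by -0.74 (adjusted p = 0.083, not called). The dKOMst S3 array read 10.08, inside the WT S3 range, with a difference of -0.47 with the pass as a term. Stk4 was itself 0.46 higher on the second pass (limma adjusted p = 0.037), and the WT ranges given here hold both passes. These values therefore cannot show whether Stk4 sets the dKOMst S3 array apart from WT. No source used here places its probes inside or outside the deleted part, so this check of the labels is limited. The mean level of 9 iNKT and T cell identity genes was 11.94 to 12.10 on every array.

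Of the 93 genes, 88 read above the median of the negative controls on all 25 arrays, including all 76 main subunits of the complexes. The exceptions were the complex I assembly factor Ndufaf1 (21 arrays) and the alternative complex IV isoforms Cox6b2 (24 arrays), Cox8b (19 arrays), Ndufa4l2 (11 arrays) and Cox7b2 (0 arrays). Cox6b2 and Cox7b2 are best known as testis isoforms, and Cox8b as a heart and muscle isoform.

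Subunit genes are known to share promoter elements for the factors NRF1, YY1 and the ETS family, of which NRF2 is a member. RefSeq start sites (build GRCm38.p6) were available for 77 of the 93 genes. In windows of 300 bases around the start (250 before, 50 after), the NRF1 motif (GCGCA, any base, GCGC), searched like the others on both strands with a palindromic match counted once, lay in 24.7% of the 77 genes and in 7.17% of 17492 protein-coding genes. The ETS motif CCGGAAG lay in 24.7% against 12.9%, and the YY1 motif AAGATGGC in 14.3% against 3.57%. Any of the 3 motifs lay in 54.5% against 21%. Complex V genes had an NRF1 motif in 6 of 15 windows (40%), and complex IV genes in 1 of 13 (7.69%). The following are the 150 bases upstream of the start, 5′ to 3′ on the gene's strand, with NRF1 motifs in capitals. The first pair are the complex I genes with the largest differences between the WT stages. Ndufb4 and Ndufa11 are complex I genes that were higher in Mst1KO S3. Sdha, with a motif 3 times over, and Cox7a2l, with none, are shown for contrast, since Sdha was called in no genotype or stage comparison and Cox7a2l opposed the other genes.
Ndufab1, chr7:122101849-122101998, minus strand: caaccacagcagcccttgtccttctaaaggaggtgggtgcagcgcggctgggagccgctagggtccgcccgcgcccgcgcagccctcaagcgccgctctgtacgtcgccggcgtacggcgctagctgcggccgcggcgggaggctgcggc
Ndufs5, chr4:123718187-123718336, minus strand: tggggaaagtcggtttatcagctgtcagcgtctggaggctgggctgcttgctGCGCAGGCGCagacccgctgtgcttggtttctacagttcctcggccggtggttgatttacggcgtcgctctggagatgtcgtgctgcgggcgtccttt
Ndufb4, chr16:37654369-37654518, minus strand: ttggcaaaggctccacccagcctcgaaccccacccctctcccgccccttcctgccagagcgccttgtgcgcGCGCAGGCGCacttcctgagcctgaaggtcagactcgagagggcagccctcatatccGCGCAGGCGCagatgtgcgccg
Ndufa11, chr17:56717612-56717761, plus strand: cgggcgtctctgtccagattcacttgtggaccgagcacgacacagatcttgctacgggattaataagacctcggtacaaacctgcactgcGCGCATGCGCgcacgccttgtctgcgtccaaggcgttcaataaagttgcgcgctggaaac
Sdha, chr13:74350241-74350390, minus strand: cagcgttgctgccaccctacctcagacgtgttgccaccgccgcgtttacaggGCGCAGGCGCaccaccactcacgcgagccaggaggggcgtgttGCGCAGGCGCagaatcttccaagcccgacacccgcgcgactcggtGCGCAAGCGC
Cox7a2l, chr17:83514334-83514483, minus strand: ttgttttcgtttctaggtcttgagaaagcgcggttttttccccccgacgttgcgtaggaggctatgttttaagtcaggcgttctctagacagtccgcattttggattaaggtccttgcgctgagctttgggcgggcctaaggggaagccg

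Subunit genes of complexes I, III, IV and V were on balance lower in WT S3 cells than in WT S1_S2 cells, with set medians of -0.17, -0.20, -0.11 and -0.21 on the log2 scale, while complex II had a median of 0.03. Of the 93 genes, 35 fell and 1 rose (limma adjusted p under 0.05), where 8.75% of all clusters fell and 8.18% rose. Among the 4161 bright clusters, 18.5% fell and 18.0% rose. The differences were small: the median over the 93 genes was -0.15 on the log2 scale, against 0.01 over all clusters, and 75 of 93 were negative. The median level of the 93 genes on each array ran from 10.31 to 10.53 in WT S3 (median 10.45) and from 10.57 to 10.91 in WT S1_S2 (median 10.81), without overlap. By complex, the array medians were apart for complex I but overlapped for complexes II, III, IV (main isoforms) and V. For complex V they ran from 10.76 to 11.07 in WT S3 and from 10.62 to 11.04 in WT S1_S2, so they did not show a fall. An array median is the level of the middle gene, whereas the set medians above are taken over the differences of single genes. In bulk RNA from sorted cells, fewer cells of a kind and less RNA per cell cannot be told apart.

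**Figure D1:**
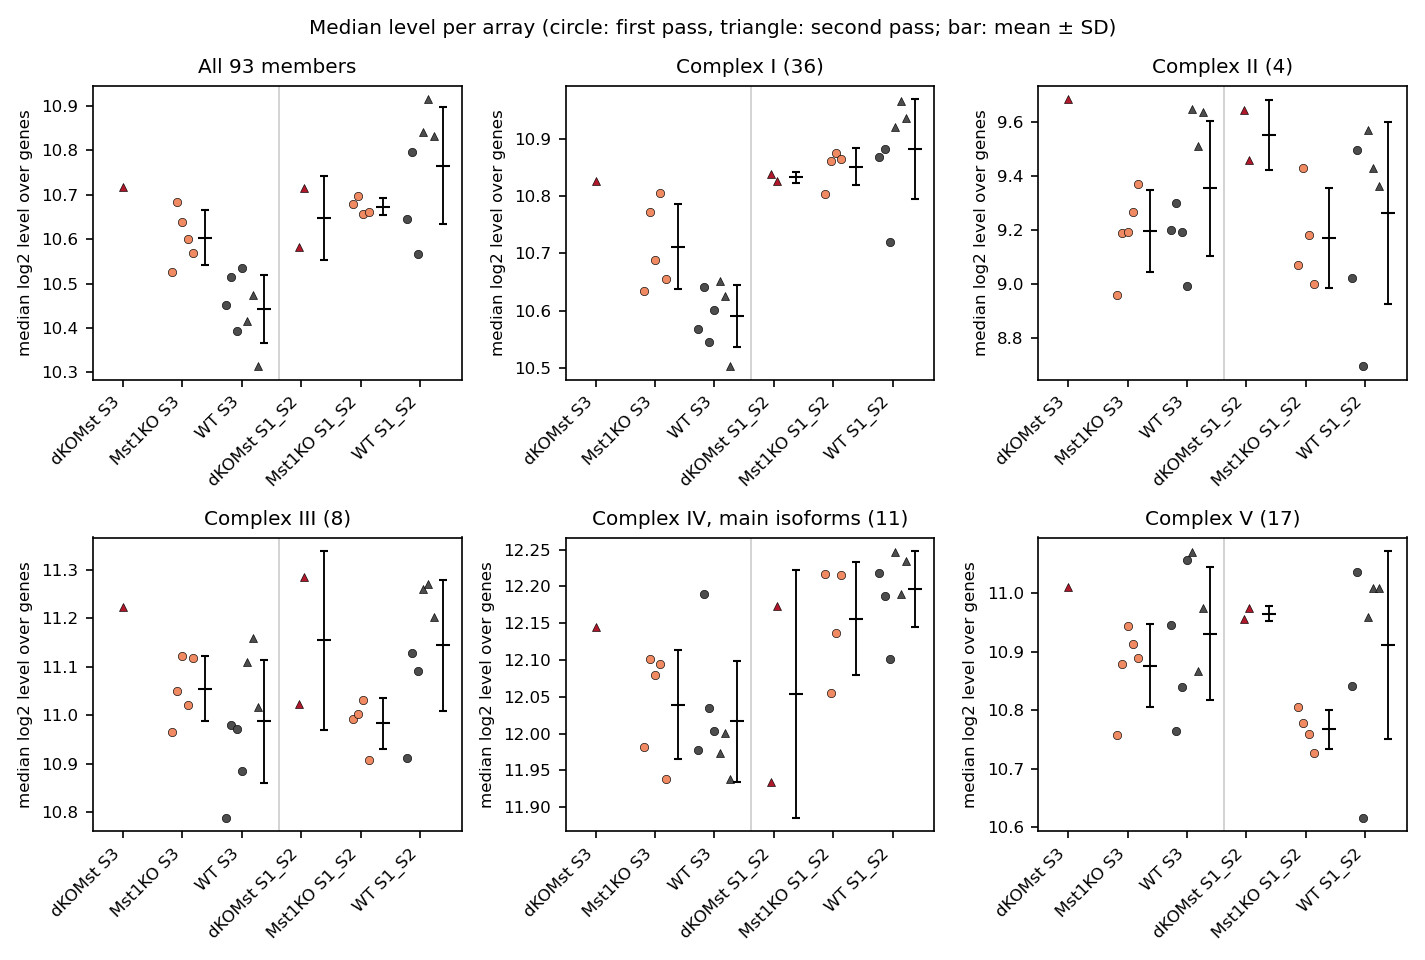
Median log2 level on each array over all 93 genes and over the subunits of complexes I, II, III, IV (main isoforms) and V, with 1 panel a set and the 6 groups along each axis. Circles are first-pass and triangles second-pass arrays, and bars are the group mean ± SD. Over all 93 genes WT S3 lies at 10.31 to 10.53, below WT S1_S2 at 10.57 to 10.91. The WT stages are apart for complex I as well and overlap for the other complexes. For complex V, WT S3 lies at 10.76 to 11.07 and WT S1_S2 at 10.62 to 11.04.

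In complex I, 16 of 36 genes fell between the WT stages, 15 of 30 supernumerary and 1 of 6 core subunits. Ndufab1, the mitochondrial acyl carrier protein and also a complex I subunit, read 8.52 to 9.18 in WT S3 (median 8.79) and 9.39 to 9.57 in WT S1_S2 (median 9.40). All 7 WT S3 arrays lay below all 6 WT S1_S2 arrays, and the log2 difference was -0.62 ± 0.09 (SE, limma adjusted p = 1.2e-05), a 1.54-fold fall. Ndufs5, a small subunit facing the intermembrane space, read 10.21 to 10.64 in WT S3 (median 10.51) and 10.86 to 11.14 in WT S1_S2 (median 10.99). Its groups did not overlap either, with a difference of -0.55 ± 0.07 (adjusted p = 3.7e-06). Ndufc1, of the membrane arm, read 10.04 to 10.35 in WT S3 (median 10.23) and 10.65 to 10.84 in WT S1_S2 (median 10.71), a difference of -0.51 ± 0.07 without overlap. The one core subunit that fell was Ndufv2, an iron-sulfur protein next to the site of NADH oxidation, at 9.82 to 10.31 in WT S3 (median 10.15) and 10.47 to 10.75 in WT S1_S2 (median 10.60), a difference of -0.46 ± 0.08. The groups were again separate. Its neighbour Ndufv1, the NADH-binding subunit, differed by -0.05 (adjusted p = 0.88), and Ndufs1, which also carries iron-sulfur clusters, by 0.15 (adjusted p = 0.51).

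The next complex I falls were Ndufc2 at -0.37 ± 0.06, Ndufb6 at -0.37 ± 0.05 and Ndufb9 at -0.35 ± 0.08. Ndufs4, a matrix-arm subunit mutated in human Leigh syndrome, differed by -0.32 ± 0.06, with levels of 10.36 to 10.87 in WT S3 and 10.79 to 11.09 in WT S1_S2, which overlapped. Ndufb5, Ndufs6, Ndufb4, Ndufb4b, Ndufv3, Ndufa11, Ndufa1 and Ndufa12 fell by 0.19 to 0.31. Ndufb4 and Ndufb4b are close copies, so that their probes may read each other's transcripts and the pair is counted with that doubt. Of 8 complex I assembly factors, Ndufaf4 (-0.48 ± 0.09, adjusted p = 0.00064) and Ndufaf2 (-0.44 ± 0.09, adjusted p = 0.00074) fell. Ndufaf8, which works with the assembly factor Ndufaf5, was the only one of the 93 genes that rose: it read 9.21 to 9.42 in WT S3 and 8.87 to 9.27 in WT S1_S2, with overlap and a difference of 0.27 ± 0.07 (adjusted p = 0.011).

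**Figure D2:**
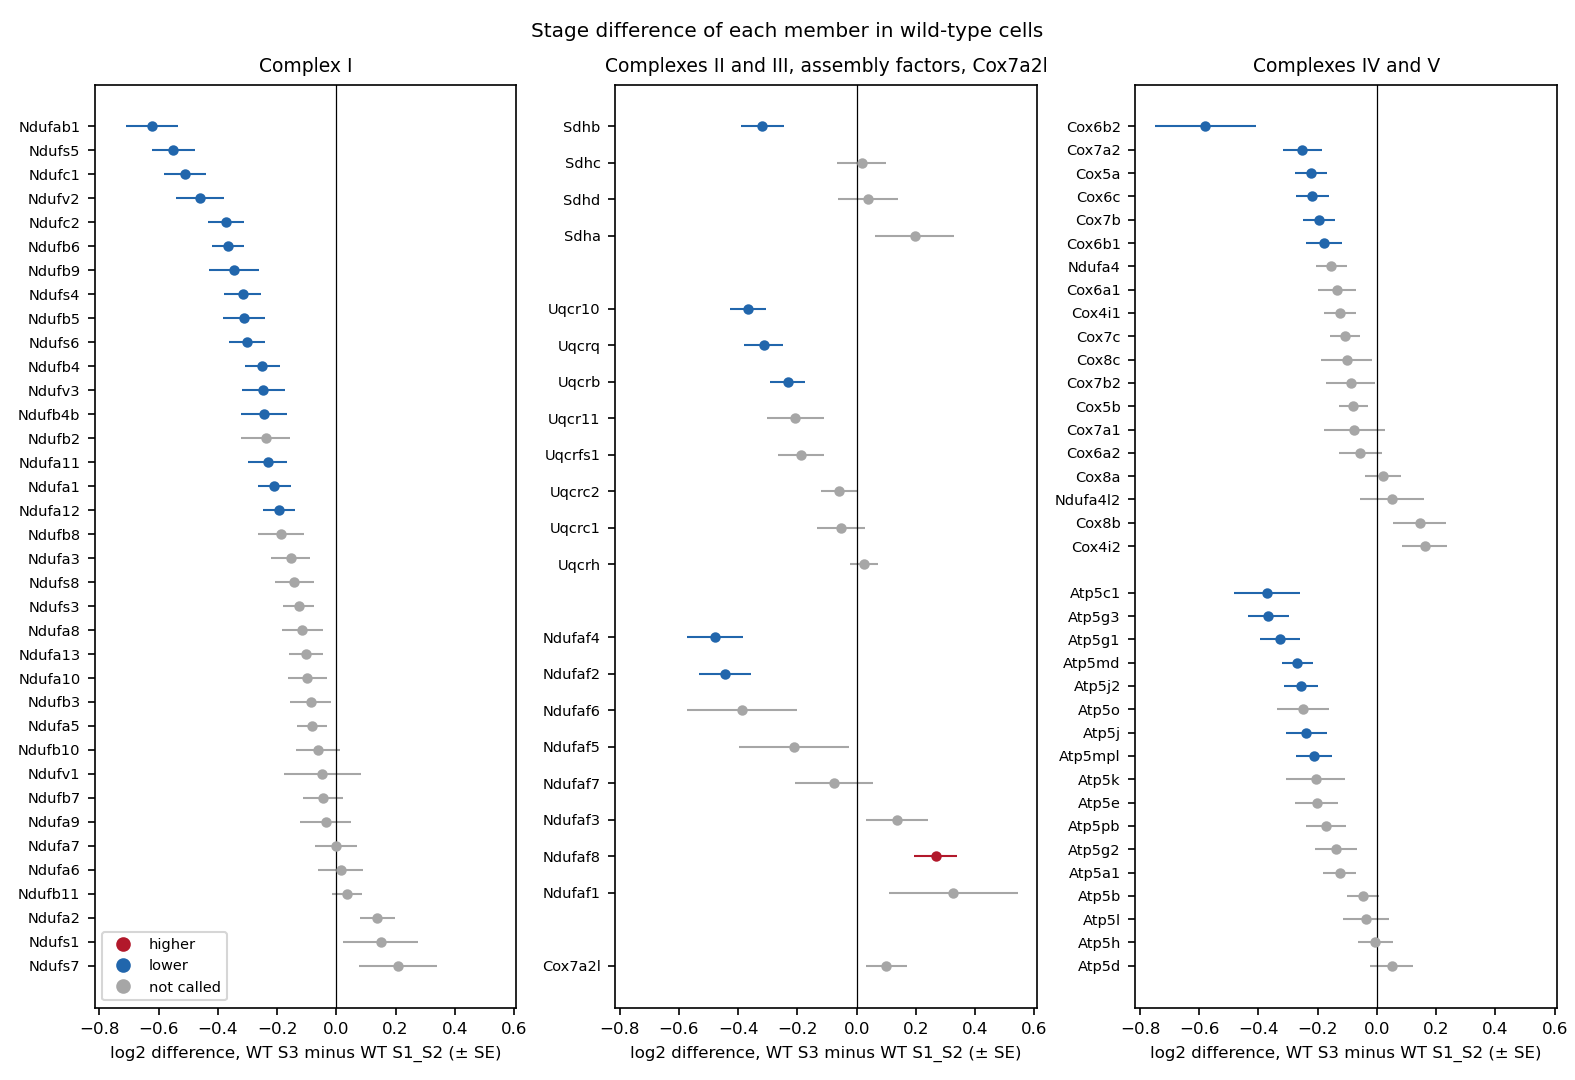
Log2 difference, WT S3 minus WT S1_S2, with its SE for each of the 93 genes in 3 panels by complex; blue marks genes that fell, red the gene that rose and grey genes not called. The estimates run from -0.62 (Ndufab1) to 0.33 (Ndufaf1, not called), and 75 of 93 lie below 0.

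Complex II, which is also the succinate dehydrogenase of the TCA cycle, had 1 fall among 4 genes, and the other 3 estimates were positive. Sdhb, its iron-sulfur subunit, read 10.58 to 11.16 in WT S3 (median 10.98) and 10.99 to 11.50 in WT S1_S2 (median 11.29), a difference of -0.32 ± 0.07 (adjusted p = 0.0029) with overlapping groups. Sdha, the flavoprotein that oxidises succinate, differed by 0.20 ± 0.13 (adjusted p = 0.40), and the membrane anchors Sdhc and Sdhd by 0.02 and 0.04. Sdha spread widely within groups, from 8.40 to 9.63 in WT S3 and from 8.46 to 9.39 in WT S1_S2, and it was 0.54 ± 0.13 higher on the second pass (adjusted p = 0.02).

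In complex III, 3 of 8 genes fell. Uqcr10, a small subunit beside cytochrome c1, read 11.65 to 11.87 in WT S3 (median 11.78) and 12.01 to 12.23 in WT S1_S2 (median 12.18), with no overlap and a difference of -0.37 ± 0.06 (adjusted p = 6.6e-05). Uqcrq (-0.31 ± 0.07) and Uqcrb (-0.23 ± 0.06) fell as well, and both proteins sit near the ubiquinone site. The large core proteins Uqcrc1 (-0.05, adjusted p = 0.76) and Uqcrc2 (-0.06, adjusted p = 0.61) and the Rieske iron-sulfur protein Uqcrfs1 (-0.19, adjusted p = 0.11) were not called. Cytochrome c itself, Cycs, outside the 93 genes, fell by 0.26 (adjusted p = 0.0008).

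In complex IV, 5 of 11 main isoforms and 1 of 8 alternative isoforms fell. Cox5a, a matrix-side subunit, read 11.24 to 11.35 in WT S3 (median 11.27) and 11.40 to 11.67 in WT S1_S2 (median 11.49), a difference of -0.22 ± 0.05 (adjusted p = 0.0037) without overlap. Cox7a2, the widely expressed form of subunit 7a, read 11.93 to 12.23 in WT S3 and 12.21 to 12.47 in WT S1_S2, with a slight overlap and a difference of -0.25 ± 0.07. Cox6c, Cox7b and Cox6b1 fell by 0.18 to 0.22, while Cox4i1, the main regulatory subunit, differed by -0.13 (adjusted p = 0.12). The alternative isoform Cox6b2 had the largest estimate of the complex, -0.58 ± 0.17 (adjusted p = 0.019), but its groups overlapped: 6.31 to 7.40 in WT S3 (median 6.95) and 6.90 to 7.96 in WT S1_S2 (median 7.38). These levels lie near the negative controls, whose medians were 6.19 to 6.59. Cox7a2l differed by 0.10 (adjusted p = 0.41).

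In complex V, 7 of 17 genes fell and 16 of 17 estimates were negative. They included Atp5c1, the gamma shaft of the rotor (-0.37 ± 0.11, adjusted p = 0.022), and 2 of the 3 genes for the ring subunit c, whose mature proteins are identical. Atp5g3 read 10.97 to 11.18 in WT S3 (median 11.11) and 11.20 to 11.63 in WT S1_S2 (median 11.50), a difference of -0.37 ± 0.07 (adjusted p = 0.00041), and the groups did not overlap. Atp5g1 differed by -0.33 ± 0.07 (adjusted p = 0.0011), and Atp5g2 by -0.14 (adjusted p = 0.21, not called). Atp5md and Atp5mpl, small membrane subunits, and Atp5j2 and Atp5j of the membrane part and stalk fell by 0.21 to 0.27. The catalytic head genes Atp5a1 (-0.13, adjusted p = 0.15) and Atp5b (-0.05, adjusted p = 0.66) were not called.

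Over the 93 genes, 15 had all WT S3 arrays below all WT S1_S2 arrays and 0 had them above, where 3.42% and 3.26% of all clusters did. Within the first pass 66 of the 93 genes had a negative difference (median -0.11), within the second 78 did (median -0.21), and 65 did in both. Fitted within a pass, with 4 against 3 and 3 against 3 WT arrays, 8 and 14 genes fell. The shares of all clusters that fell in those smaller fits are not given here, so these counts have no background beside them. Leaving out 1 array in turn gave 30 to 43 called genes, and with a minimum change of 1.5-fold 1 gene, Ndufab1, was called. All 23 measured cell division genes (G2 and M phase) fell over the same step, with a median of -1.77 and array means of 6.79 to 7.54 in WT S3 against 8.33 to 9.45 in WT S1_S2. Of 11 myeloid and dendritic markers, 3 rose (Fcgr3 2.22, Lyz2 1.00, Mpeg1 0.85), with array means of 6.35 to 6.56 in WT S3 against 5.91 to 6.19 in WT S1_S2, and 3 of the 11 were above the controls on no array. Of 8 NK cell markers 7 rose, and of 6 double-positive thymocyte markers Dntt rose and Cd4 fell. The part of any of these lists in the subunit result was not tested.

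Genes around the respiratory chain were counted from lists of general knowledge over the same WT step. Counted once each and without the 93 genes, 36 of 179 fell (20.1%) and 7 rose (3.91%), where 18.5% of bright clusters fell and 18.0% rose, so that the share that fell is near the bright background. Of 76 mitochondrial ribosomal proteins, which make the subunits encoded by mitochondrial DNA, 21 fell and 1 rose (median -0.18). Mrps5 fell by 0.71, Mrpl52 by 0.61 and Mrps28 by 0.54. Of 13 TCA cycle enzymes, Idh2 (-0.34), Fh1 (-0.29) and Mdh2 (-0.26) fell and none rose. Of 31 assembly factors of complexes II to V, Cox10 (-0.53) and Cox15 (-0.31), which make the haem of complex IV, Cox18 (-0.52) and Cmc1 (-0.44) fell and Surf1 (0.20) rose. Of 20 regulators of mitochondrial DNA expression, Lrpprc (-0.48) and Slirp (-0.24), partners in mitochondrial mRNA stability, and the DNA polymerase subunit Polg2 (-0.42) fell, and Myc rose (0.41). Of 15 carriers and channels, 3 fell and 3 rose, among them the ADP/ATP carrier Slc25a4 (-0.33) and the aspartate/glutamate carrier Slc25a12 (0.37). Of 11 genes of pyruvate entry, the kinase Pdk3 fell (-0.55) and the phosphatase Pdp1 rose (0.61).

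The same step in Mst1KO cells gave few calls among the 93 genes, with a share of falls near the background. Between Mst1KO S3 and Mst1KO S1_S2, 8 of the 93 genes fell and 1 rose, where 4.62% of all clusters fell and 5.58% rose. Among bright clusters 6.44% fell and 13.3% rose, so that 8 of 93 falls is near the background, while 1 of 93 rises is below it. The median difference was -0.05, against -0.04 over all clusters and 0.03 over bright clusters, of which 2336 of 4161 were positive. Ndufaf2, a late assembly factor of complex I, read 8.46, 8.69, 8.53, 8.90 and 8.58 in Mst1KO S3 and 9.08, 9.22, 9.35 and 8.99 in Mst1KO S1_S2. The groups were apart and the difference was -0.53 ± 0.11 (limma adjusted p = 0.0016). Uqcr10 read 11.78, 11.91, 11.86, 12.04 and 11.89 in Mst1KO S3 and 12.19, 12.20, 12.25 and 12.30 in Mst1KO S1_S2, also apart, with a difference of -0.34 ± 0.07 (adjusted p = 0.0023). Ndufc1 fell by 0.35 ± 0.09 (adjusted p = 0.0084), and Ndufc2, Ndufs5, Ndufa3, Ndufs6 and Ndufa12 fell by 0.21 to 0.27. Uqcrc1, a core protein of complex III, was the gene that rose: it read 10.61, 10.74, 10.79, 10.62 and 10.93 in Mst1KO S3 and 10.40, 10.55, 10.46 and 10.16 in Mst1KO S1_S2, a difference of 0.35 ± 0.10 (adjusted p = 0.023) without overlap. No gene of complex II, IV or V was called.

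The WT and Mst1KO steps share no arrays, but both were read from 1 fit that gives each gene a single estimate of spread. In WT 35 of the 93 genes fell, and the matching overlap over all clusters is not given here. Of the 8 genes that fell in Mst1KO, 7 were among the 35 that fell in WT, 87.5% of the Mst1KO list and 20.0% of the WT list, with Ndufa3 as the exception (-0.26 ± 0.08 in Mst1KO). Of the 35 WT genes, 32 had a negative estimate in Mst1KO, with a median of -0.18, against -0.31 in WT where they were chosen. Of all 93 genes, 63 had a negative estimate in Mst1KO. Of the 93 genes, 16 had all Mst1KO S3 arrays below all Mst1KO S1_S2 arrays and 3 above, where 7.09% and 6.96% of all clusters did. The count of 9 called genes depended on the model: it was 4 with no term for the pass and 16 with a trended variance. It was 5 without replicate 1 or replicate 4 of Mst1KO S1_S2, 5 without replicate 3 of Mst1KO S3 and 4 without replicate 5 of Mst1KO S3. With arrays having Y-linked signal alone it was 1. With array medians centred, 2 rose and 3 fell, and 68.1% of all called clusters rose, against 54.7% in the deposited scaling. Of the 23 cell division genes, 20 fell over the Mst1KO step (median -1.22), and their part was not tested.

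**Figure D3:**
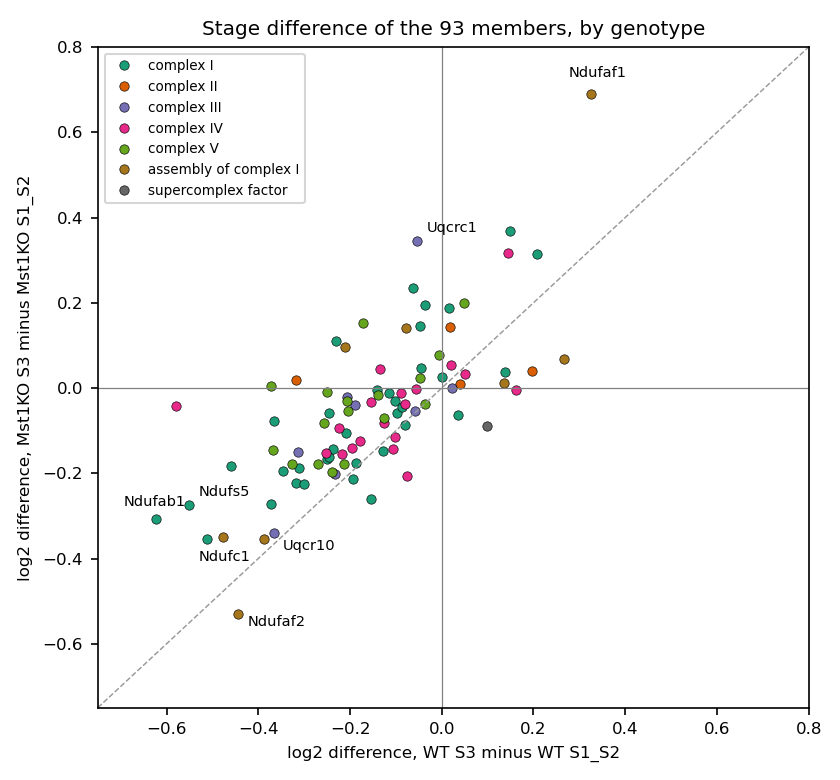
Log2 difference between the stages for each of the 93 genes, S3 minus S1_S2, with Mst1KO on the vertical and WT on the horizontal axis, coloured by complex; the dashed line marks equal differences. Of the 35 genes that fell in WT (median -0.31), 32 lie below 0 in Mst1KO (median -0.18), where 63 of all 93 do.

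A comparison of Mst1KO S3 with WT S3 asked what loss of Mst1 changes in NK1.1-positive cells. Of the 93 genes, 8 were higher and 1 lower in Mst1KO S3, where 3.73% of all clusters were higher and 2.64% lower. Among bright clusters 9.11% were higher and 1.87% lower, so that the share of 8 of 93 is near that background. The median difference was 0.06, against -0.05 over all clusters and 0.06 over bright clusters. With array medians centred, 73.0% of all called clusters were higher, against 58.6% in the deposited scaling. The 8 genes belong to complex I (5 of 36), complex II (1 of 4) and complex V (2 of 17), with 0 of 8 in complex III and 0 of 19 in complex IV.

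In complex I, Ndufb6, of the membrane arm, read 11.53, 11.58, 11.71, 11.72 and 11.55 in Mst1KO S3 and 11.31 to 11.45 in WT S3 (median 11.41). All Mst1KO S3 arrays lay above all WT S3 arrays, and the difference was 0.27 ± 0.06 (SE, limma adjusted p = 0.012). Ndufs5 read 10.76, 10.83, 10.70, 10.81 and 10.73 in Mst1KO S3 and 10.21 to 10.64 in WT S3 (median 10.51), without overlap and with a difference of 0.30 ± 0.08 (adjusted p = 0.032). Ndufa11, also of the membrane arm, read 10.04, 10.07, 10.13, 10.07 and 10.08 in Mst1KO S3 and 9.75 to 9.96 in WT S3 (median 9.82), a difference of 0.27 ± 0.07 (adjusted p = 0.032). Ndufb4 read 11.48, 11.55, 11.67, 11.65 and 11.49 in Mst1KO S3 and 11.21 to 11.45 in WT S3 (median 11.33), a difference of 0.24 ± 0.07, and its close copy Ndufb4b differed by 0.33 ± 0.09 (adjusted p = 0.029). For Ndufs5, Ndufa11, Ndufb4 and Ndufb6 the groups did not overlap, 4 genes of 93, where 1.46% of all clusters lay wholly above. The 6 core subunits had positive estimates of 0.07 to 0.33 and 0 calls. The nearest was Ndufv2 at 0.27 (adjusted p = 0.076).

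**Figure D4:**
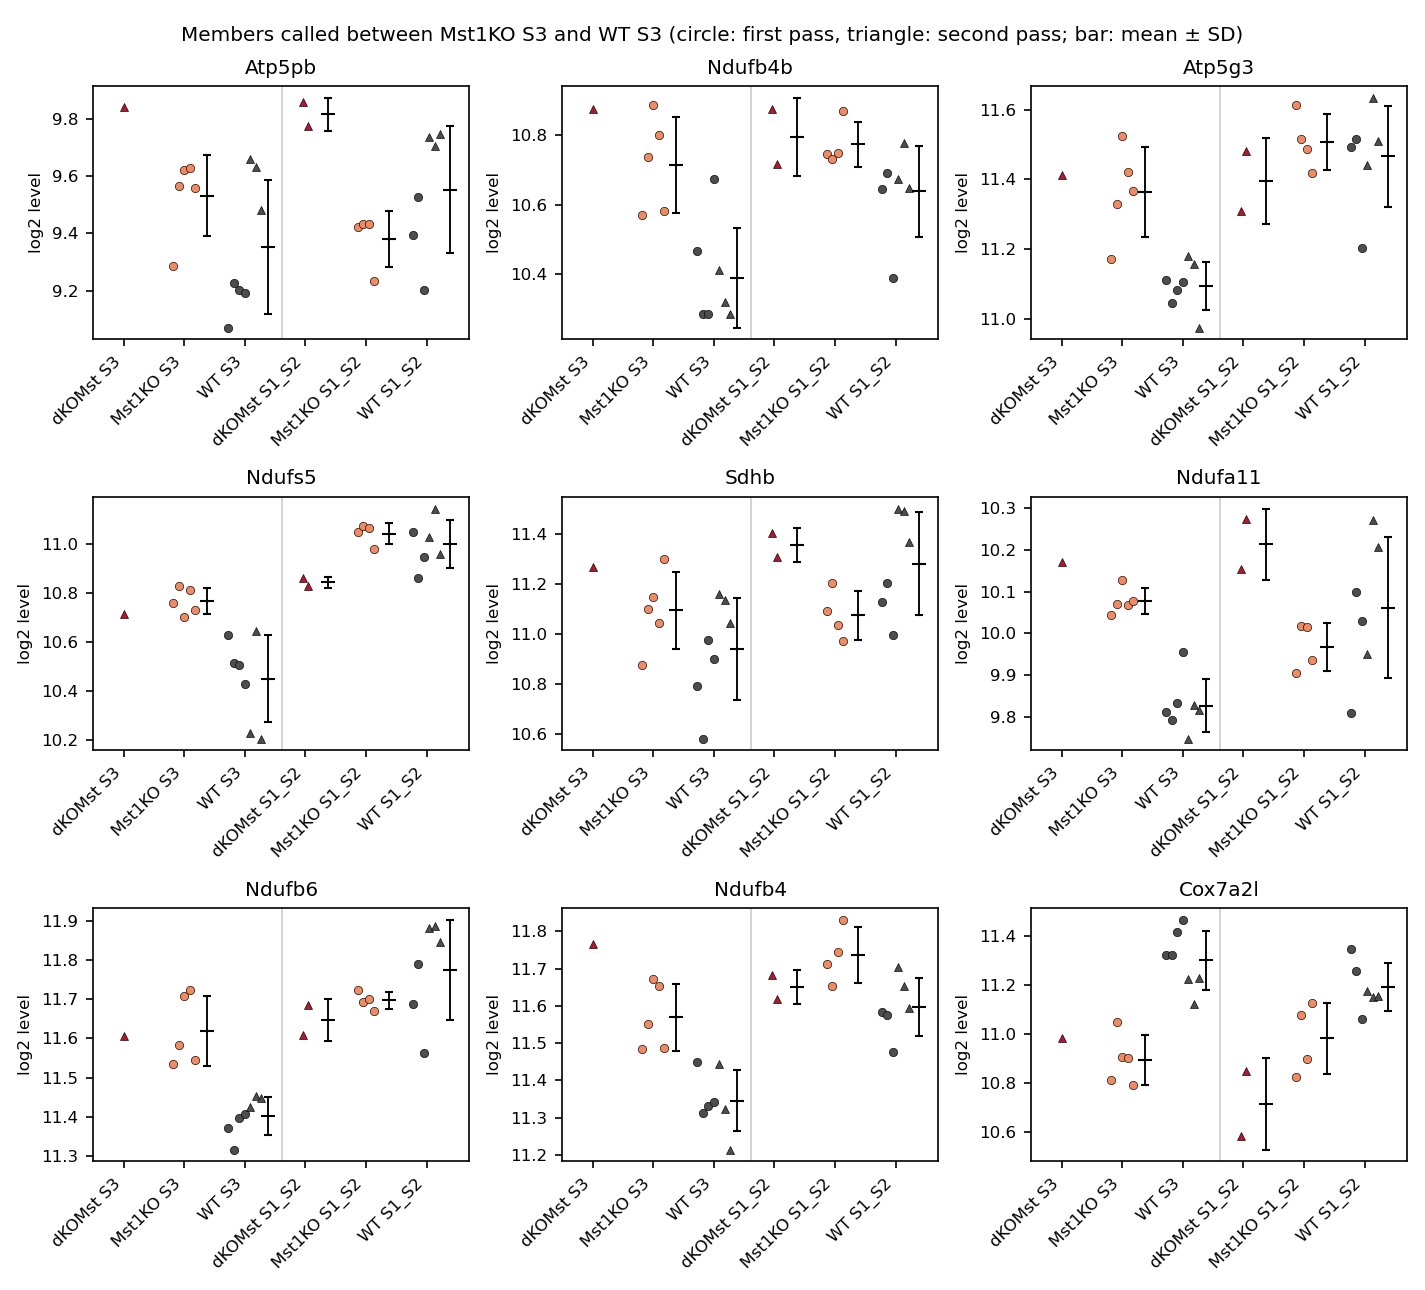
Log2 levels on each array, by group, of the 9 genes called between Mst1KO S3 and WT S3, with 1 panel a gene. For Ndufb6 the Mst1KO S3 arrays read 11.53 to 11.72 and the WT S3 arrays 11.31 to 11.45, and for Cox7a2l the Mst1KO S3 arrays read 10.79 to 11.05 and the WT S3 arrays 11.12 to 11.47.

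In complex V, Atp5pb, the b subunit of the stalk that holds the catalytic head still, read 9.29, 9.57, 9.62, 9.63 and 9.56 in Mst1KO S3 and 9.07 to 9.66 in WT S3 (median 9.23). The groups overlapped because WT S3 split by pass, with 9.07, 9.23, 9.20 and 9.19 on the first and 9.66, 9.63 and 9.48 on the second. The difference with the pass as a term was 0.35 ± 0.08 (adjusted p = 0.01), and within the first pass it was 0.36 ± 0.09 (adjusted p = 0.045). Atp5g3 read 11.17, 11.33, 11.53, 11.42 and 11.37 in Mst1KO S3 and 10.97 to 11.18 in WT S3 (median 11.11), a difference of 0.30 ± 0.08 (adjusted p = 0.027), with 1 Mst1KO S3 array inside the WT range. In complex II, Sdhb read 10.88, 11.10, 11.15, 11.05 and 11.30 in Mst1KO S3 and 10.58 to 11.16 in WT S3 (median 10.98), with overlap and a difference of 0.29 ± 0.08 (adjusted p = 0.039). Of these, Sdhb and Atp5pb were also higher on the second pass, by 0.32 and 0.39.

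Cox7a2l, whose protein (SCAF1) is known for a part in joining complexes III and IV into supercomplexes, was the gene lower in Mst1KO S3. In mice its protein exists in a long and a short form, and C57BL/6 carries the short one. What the short form does in these cells was not measured, and neither were supercomplexes. It read 10.81, 11.05, 10.91, 10.90 and 10.79 in Mst1KO S3 and 11.12 to 11.47 in WT S3 (median 11.32). All 5 Mst1KO S3 arrays lay below all 7 WT S3 arrays, a separation seen in this direction in 1 of the 93 genes and in 1.07% of all clusters. The difference was -0.46 ± 0.08 (limma adjusted p = 0.0013), a 1.38-fold fall, and -0.49 ± 0.09 within the first pass (adjusted p = 0.009). It passed in all 12 fits that left out 1 of the arrays compared, with adjusted p up to 0.0052. In Mst1KO S1_S2 it read 10.82, 11.08, 10.90 and 11.13, against 11.06 to 11.35 in WT S1_S2 (median 11.16), and the difference of -0.28 ± 0.09 (adjusted p = 0.23) was not called. In dKOMst S1_S2 it read 10.58 and 10.85, below every WT S1_S2 array, with a difference of -0.41 ± 0.11 (adjusted p = 0.071, not called). The dKOMst S3 array read 10.98, below the 3 WT S3 arrays of its pass at 11.12 to 11.23. The 2 S1_S2 comparisons share their WT arrays. Its close relative Cox7a2 differed by -0.01 in Mst1KO S3 (adjusted p = 0.93) and by -0.11 in Mst1KO S1_S2 (adjusted p = 0.81).

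The calls in Mst1KO S3 other than Cox7a2l depended on the model. All of them but Ndufb6 and Atp5pb depended on single arrays as well. The count of 9 became 3 without replicate 4, 4 without replicate 2 or replicate 3, and 5 without replicate 5 of Mst1KO S3. It became 1 (Cox7a2l) when the groups compared were fitted alone and again with arrays having Y-linked signal alone, 3 with a term for that signal or after quantile normalization, and 2 within the first pass. Ndufb6 and Atp5pb were called in all 12 fits that left out 1 of the arrays compared, while Sdhb and Ndufb4 were called in 6 of 12. Of 23 cell division genes 13 were higher in Mst1KO S3 (median 0.77), with array means of 7.50 to 7.84 in Mst1KO S3 against 6.79 to 7.54 in WT S3. The negative control medians were 6.36 to 6.59 in Mst1KO S3 against 6.19 to 6.41 in WT S3. Of 8 NK cell markers 4 were higher and 1 lower, of 6 double-positive thymocyte markers Cd8b1 was higher and Cd4 lower, and 0 of 11 myeloid markers were called. Their part in the subunit calls was not tested.

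The comparison of Mst1KO S3 with WT S3 and the WT stage comparison share the WT S3 arrays, so that a low reading of a gene on those arrays moves both. Side by side, the 35 genes that fell between the WT stages had a median of 0.13 in Mst1KO S3 against WT S3, 30 of them positive and 7 called higher. The fall of Ndufs5 was 0.55 in WT and 0.27 in Mst1KO, and its level was 0.30 higher in Mst1KO S3 than in WT S3. Ndufb6 differed between the stages by -0.37 in WT and by -0.08 in Mst1KO (adjusted p = 0.51), and by 0.27 between Mst1KO S3 and WT S3. Whether the Mst1KO effect differs between S3 and S1_S2 was tested directly. That difference was called for 0 of the 93 genes and for 0.158% of all clusters. Unadjusted p was under 0.05 for 10 of them, all with a higher effect at S3, where 4.26% of all clusters and 8.44% of bright clusters had such a p and a higher effect. Of the 93 estimates 75 were positive, with a median of 0.09 (all clusters -0.03, bright clusters 0.04, with 2539 of 4161 positive). Within the first pass, which holds every Mst1KO array, 64 were positive and the median was 0.03. With array medians centred, 72.7% of all called clusters were positive, against 57.1% in the deposited scaling. The smallest adjusted p belonged to Ndufb6 (0.29 ± 0.09, limma adjusted p = 0.24), Ndufa11 (0.34 ± 0.10, adjusted p = 0.26) and Uqcrc1 (0.40 ± 0.13, adjusted p = 0.3). All 17 complex V estimates were positive, with a median of 0.15, against 15 of 17 and a median of 0.08 within the first pass.

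Around the chain, 17 of 179 genes of the mitochondrial lists outside the 93 were higher in Mst1KO S3 than in WT S3 and 0 lower. That share is near the 9.11% of bright clusters that were higher. Of 76 mitochondrial ribosomal proteins 9 were higher (median 0.18), among them Mrpl19 (0.55), Mrps27 (0.54) and Mrpl16 (0.53). Tmem126b, a membrane assembly factor of complex I, was higher by 1.00 (adjusted p = 0.00074), 1 of 17 assembly factors of that complex. Ttc19, of complex III maturation, was higher by 0.85 (1 of 31), and Cs, citrate synthase, by 0.36 (1 of 13 TCA cycle enzymes). Polg2 was higher by 0.53, the pyruvate carrier Mpc1 by 0.44, the calcium uniporter Mcu by 0.79, Slc25a12 by 0.37 and Vdac3 by 0.30. Of these, Polg2 had fallen by 0.42 between the WT stages and Slc25a12 had risen by 0.37, with the same WT S3 arrays in both comparisons.

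In S1_S2 cells, none of the 93 genes passed the threshold on loss of Mst1. In Mst1KO S1_S2 against WT S1_S2, limma called 0 genes, where 0.522% of all clusters were called. Unadjusted p was under 0.05 for 5, of which 4 were lower, where 8.65% of all clusters had such a p. The median was -0.02 (all clusters -0.01), and 0.01 within the first pass. After Cox7a2l, the smallest p belonged to Ndufa6, a subunit of the matrix arm (-0.23, adjusted p = 0.46), and Atp5e, the epsilon subunit of the rotor (-0.20, adjusted p = 0.52). Ndufa6 read 10.08, 9.99, 9.99 and 9.90 in Mst1KO S1_S2 and 9.94 to 10.40 in WT S1_S2, so that the groups overlapped. Spread within Mst1KO S1_S2 was low, with a median SD of 0.08 over the 93 genes against 0.14 in WT S1_S2.

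Loss of Mst1 and Mst2 together at S1_S2 gave 0 calls among the 93 genes, where 0.923% of all clusters were called, and dKOMst has 2 arrays here. Unadjusted p was under 0.05 for 12 genes, all lower in dKOMst, where 4.69% of all clusters and 7.83% of bright clusters had such a p and were lower. The median was -0.06 (all clusters 0.01), and -0.10 within the second pass. Cox7a2 read 11.86 and 12.04 in dKOMst S1_S2 and 12.21 to 12.47 in WT S1_S2 (median 12.32). Both arrays lay below all WT arrays, and the difference was -0.41 ± 0.10 (limma adjusted p = 0.053). Uqcrb read 11.22 and 11.40 in dKOMst S1_S2 and 11.46 to 11.63 in WT S1_S2, a difference of -0.30 ± 0.09 (adjusted p = 0.14). For 19 genes both dKOMst arrays lay below all 6 WT arrays and for 2 above, where 6.68% and 7.66% of all clusters did. In the same comparison, 3 of 8 NK cell markers (Fcer1g 2.06, Cd244a 1.14, Eomes 0.91) and 2 of 11 myeloid and dendritic markers (Itgam 0.93, Lyz2 0.70) were higher in dKOMst S1_S2. Array means of the NK list were 7.18 and 7.19 in dKOMst S1_S2 against 6.36 to 6.81 in WT S1_S2, and those of the myeloid list 6.10 and 6.20 against 5.91 to 6.19. The NK1.1 gene Klrb1c, used in the sort, differed by -1.18 (lower, limma adjusted p = 0.02), and 0 of 23 cell division genes were called, with 20 negative. The part of these in the subunit values was not tested. Against Mst1KO S1_S2, limma called 0 genes (3 with unadjusted p under 0.05, where 8.50% of all clusters had one) and 0.171% of all clusters. Uqcrb again had the smallest p (-0.36 ± 0.11, adjusted p = 0.21), followed by Cox7a2 (-0.30, adjusted p = 0.47) and Uqcrc1 (0.32, adjusted p = 0.57). Since Mst1KO and dKOMst lie in different passes, that comparison rests on the WT arrays for the pass.

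The single dKOMst S3 array has no replicate, so its values are a description. Set against the 3 WT S3 arrays of its pass, 63 of the 93 genes (67.7%) read above all 3 and 10 below all 3, where 26.6% and 26.0% of all clusters did. The median difference was 0.14, against 0.0004 over all clusters. In complex V, 12 of 17 genes lay above all 3 WT arrays and 0 below, and in complex I 26 of 36 lay above. Ndufb4 read 11.77 in dKOMst S3, against 11.21 to 11.44 on the 3 WT S3 arrays. Ndufs5 read 10.71, against 10.21 to 10.64, and Ndufa11 read 10.17, against 9.75 to 9.83. Uqcrq, of complex III, read 12.13, against 11.77 to 11.81. The lowest differences were those of Cox6b2 (-0.76), Ndufs1 (-0.73) and Ndufaf1 (-0.67). Ndufs1, a core subunit of complex I, read 7.27 in dKOMst S3, against 7.79 to 8.26. The cell division mean on the dKOMst S3 array was 7.91, against 7.54, 7.47 and 7.40 on the 3 WT S3 arrays of its pass. The part of cell division in the subunit values was not tested. The limma fit, which takes the spread of a lone array from the other groups, called 0 of the 93 genes and 0.122% of all clusters.

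Promoter motifs were set beside the WT stage result as a description. Of the genes that fell between the WT stages, 30 had a promoter in the RefSeq table, and 50% held any of the 3 motifs, against 57.4% of the 47 genes that did not fall. The NRF1 motif lay in 23.3% of those that fell and 25.5% of the others, the ETS motif in 16.7% and 29.8%, and the YY1 motif in 16.7% and 12.8%. Ndufab1, with the largest fall, held none of them in its window, and Ndufs5, with the next largest among main subunits, held an NRF1 motif (sequences above). A match does not show a site in use, and a window without a match says only that these letters are not there.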

How the data were processed

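The deposited log2 values of 25 Clariom S mouse arrays were used as they stand. Per the submitters' processing notes the authors made them by RMA in Affymetrix Expression Console 1.1, and per the labels' protocols RNA from sorted cells was amplified and labelled with NuGEN kits. RMA brings arrays to a common distribution, so a shift shared by all genes cannot be seen. No source used here gives the array's genome build. The table held 28846 entries, of which 6640 controls were set aside and 22206 clusters tested. Gene symbols come from the platform's probe table, which gives 2634 clusters no symbol. The table holds 0 sample columns that could not be mapped.

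The limma package (3.58.1, R 4.3.3) was used to fit 1 linear model per cluster with moderated variances over all 25 arrays, with a mean for each of 6 groups and a term for the pass, leaving 18 residual degrees of freedom. P-values were adjusted by Benjamini-Hochberg over all clusters. Differences carry the model's SE. Precision is limited by the number of arrays. The fits were tested on simulated data.

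The genes and lists were chosen with earlier results of these data known. Genes named are those called with the 10 largest changes in each direction per comparison (or the 3 smallest p where under 3 were called), the central and alternative subunits, and from other lists up to 3 called genes. Other members are named only to complete a complex.

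Alternatives left out the pass term or took it as a random block, fitted only the groups compared or 1 pass, quantile-normalized or centred the arrays, kept brighter clusters, weighted arrays, used a trended variance, required 1.5-fold, used arrays with Y-linked signal or a term for it, and left out each array in turn.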

Additional observations from a re-analysis of the deposited data

Results flagged for a closer look

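Dixon's criterion was applied to 260 groups of 4 to 10 arrays, over 64 named genes and the median of the 93 genes. Of these groups 18 held 1 array that stood apart, and chance gives about 1 in 20 groups. Of the 18, 4 lay on replicate 3 of WT S1_S2 and 3 on replicate 1 of Mst1KO S3. All values are log2 levels.

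On replicate 3 of WT S1_S2, Cox6c read 12.53 (others 12.64 to 12.71), Cox7b 12.38 (12.19 to 12.25), Ndufb4b 10.39 (10.65 to 10.78) and Ndufb5 10.76 (10.91 to 10.96). On replicate 1 of Mst1KO S3, Atp5pb read 9.29 (others 9.56 to 9.63), Atp5g2 9.34 (9.58 to 9.64) and Ndufa4 11.70 (11.83 to 11.87). On other Mst1KO S3 arrays, Cox7a1 read 8.46 on replicate 3 (8.15 to 8.19) and Atp5b 12.35 on replicate 4 (12.43 to 12.46).

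Among Mst1KO S1_S2 arrays, Cox6a2 read 8.74 on replicate 1 (others 8.47 to 8.49), Atp5b 12.45 (12.37 to 12.39) and Cox6c 12.54 (12.61 to 12.62) on replicate 2, and Atp5pb 9.23 (9.42 to 9.43) and Ndufb4b 10.87 (10.73 to 10.75) on replicate 4. Among WT S3 arrays, Ndufaf4 read 8.95 on replicate 3 (others 9.33 to 9.62), Ndufa11 9.96 (9.75 to 9.83) and Uqcrfs1 9.15 (9.46 to 9.69) on replicate 4, and Ndufc2 11.43 on replicate 7 (11.57 to 11.65).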

How the results depend on the processing

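No paired analysis was possible because the labels give no replicate numbers shared between groups. The counts of called genes between the WT stages (36) became 8 within the first pass, 14 within the second and 1 with a 1.5-fold minimum, and ran from 30 (without replicate 7 of WT S3) to 43 (without replicate 3 of WT S1_S2) with 1 array left out. For Mst1KO S3 against WT S3 (9) they were 1 with only the groups compared, 1 with arrays having Y-linked signal, 2 within the first pass, 3 after quantile normalization, 3 with a term for Y-linked signal and 0 at 1.5-fold, with 3 to 10 on leaving out an array. For the Mst1KO stages (9) they were 4 without the pass term, 15 with quantile normalization, brighter clusters or array weights, 16 with a trended variance, 5 with centring, 1 with Y-linked signal and 0 at 1.5-fold, with 4 to 9 on leaving out an array. For dKOMst S1_S2 against WT S1_S2 (0) they were 1 without the pass term, with a random block, quantile normalization or centring, 2 with brighter clusters or array weights and 3 with a trended variance, all lower, and 0 to 1 on leaving out an array (1 without replicate 3 of WT S1_S2). The causes were not tested. Fits to part of the arrays also had fewer arrays, and the effect of that was not tested either. The counts of 0 for Mst1KO S1_S2 against WT S1_S2, for the difference of the Mst1KO effect between stages and for dKOMst S1_S2 against Mst1KO S1_S2 stayed 0 in every alternative run. For the last, fits to the groups compared or to 1 pass could not be made, since genotype and pass coincide. Of 1443 settings for single called genes, 1159 kept their call, 284 lost it and 0 changed sign. The median of the dKOMst S3 array, 0.14, was 0.10 to 0.15. Over all clusters, Mst1KO S3 against WT S3 gave 829 higher and 586 lower, and 1034 and 382 with centring. The Mst1KO stages gave 1240 and 1026, and 1544 and 722 with centring. The effect difference gave 20 and 15, and 24 and 9 with centring. Centring put the median of the 93 genes at 0.10 in Mst1KO S3 against WT S3 and at -0.0018 between the Mst1KO stages. Most differences were under 1.5-fold, and those of isoforms near the negative controls are the least exact.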

Other observations

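The probe table names none of the 26 listed genes of the mitochondrial genome, so the subunits it encodes could not be set beside the nuclear ones. The array holds 9 unnamed clusters with M in the chromosome place of their identifiers. Between WT S3 and WT S1_S2, 6 of the 9 fell and 0 rose (limma, adjusted over all clusters). Among all clusters 8.75% fell and 8.18% rose, and among bright clusters 18.5% and 18.0%. The 9 had a median log2 difference of -0.26 and a range of -0.45 to 0.15. Between Mst1KO S3 and WT S3, 1 of the 9 was lower, with a difference of -0.43 (limma adjusted p = 0.036). In that comparison 2.64% of all clusters and 1.87% of bright clusters were lower.

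The 12 genes higher on the second pass than on the first included 3 of 6 core subunits of complex I, Ndufs1 (0.52), Ndufv1 (0.49) and Ndufs7 (0.44), and 3 of 4 complex II subunits, Sdha (0.54), Sdhd (0.34) and Sdhb (0.32). The assembly factor Ndufaf1 differed most (0.92). The other 5 were Ndufa9, Atp5pb, Uqcrc1, Ndufs4 and Atp5a1, at 0.21 to 0.40. No gene of complex IV was called, and the labels do not say what set the passes apart.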
